A study of Mus musculus with 32 samples.

Results

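The genes described here are 41 mouse genes that act in mitosis, the step in which a cell separates its copied chromosomes and divides. They were taken from a list of names, and each is represented by the probe set that the array annotation gives to that gene alone, with the highest mean over the 32 arrays where there were several. By that rule 40 of the 41 were measured, among 19938 genes in all, and Ccnb1 was not analysed here. Top2a had 2 such probe sets, and the one with the mean log2 signal of 10.85 was kept over the one at 3.63.

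Total RNA of 4 mouse macrophage lines was read on Affymetrix Mouse Gene 1.0 ST arrays, with 2 arrays, numbered I and II, in each of 16 groups. Each line's name in the labels joins M-/- with Y721F, WT, 3AB or 3ABY721, the form of the CSF-1 receptor (CSF-1R), and the lines are called Y721F, WT, 3AB and 3ABY721 here. Y721F and 3AB lack Tyr-721 of that receptor, while WT and 3ABY721 have it in phosphorylated form, per the series text. Its phosphorylation was not measured by these RNA arrays in any group, starved or not. The labels do not explain the names 3AB and 3ABY721. In the steady-state experiment each line was either grown continuously in human CSF-1 or starved of it overnight, and in the time course starved Y721F and WT cells were given CSF-1 for 0, 20, 60 or 180 min. All lines share the prefix M-/-, which the labels do not explain, and grew in α-MEM, newborn calf serum, antibiotics and, except during starvation, 120 ng/mL of the human factor. Each receptor comes as 1 line, so the receptor and any other property of its line cannot be told apart. The 2 arrays of a group are biological replicates per the series text; the sources used here do not say that they come from separate cultures, and p-values measure the spread between these arrays.

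Mitosis is driven by cyclin-dependent kinase 1 with cyclins A2 and B, together with the Polo-like and Aurora kinases. Kinetochores attach chromosomes to the spindle, kinesin motors move them, and the spindle checkpoint holds back the anaphase-promoting complex until every chromosome is attached, after which separase cuts the cohesin that joins sister chromatids. Most of these genes are transcribed mainly in late S phase, G2 and mitosis, so in a mixed culture their RNA is widely used as a sign of dividing cells. CSF-1 is the growth factor that macrophages need to survive and to enter the cell cycle. In bulk RNA, fewer cells in mitosis and less of an RNA in each cell cannot be told apart.

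All 40 measured genes gave strong signals, as their mean over the 32 arrays lay at or above the 71.6th percentile of all genes. Csf1r, which encodes the receptor itself, read between 12.72 and 13.41 on the log2 scale in every array, a level that does not tell the receptor forms apart. Of 16 macrophage genes most were high, among them Cd68 between 12.58 and 13.27 and the transcription factor gene Spi1 between 10.60 and 12.01. Aif1 was not, at 5.16 to 8.76 (46.4th percentile of mean signal), Fcgr1 ran from 5.99 up to 11.92 and Mertk from 5.43 up to 10.26. The T cell gene Cd3g (3.77 to 4.50) and the B cell gene Ms4a1 (3.68 to 4.67) stayed low in all 32 arrays. Of 12 fibroblast genes, Lum (3.28 to 4.11), Postn (4.05 to 4.58) and Dcn (4.47 to 4.92) were the lowest, while Pdgfra ran from 5.49 to 9.64, Col6a1 from 6.01 to 7.74 and Col1a1 from 6.52 to 7.34. Of 14 granulocyte and mast cell genes, the neutrophil gene Ly6g lay between 4.23 and 5.14 and Mmp8, the highest, between 5.0 and 12.99. Across genes, Pearson's r of the 2 arrays in a group was 0.986 at the lowest and 0.9962 at the highest, and array medians ran from 5.97 to 6.22.

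Since many but not all of the members share a promoter feature that the choice of genes did not use, it is shown first. Many late cell cycle promoters are known to carry a cell cycle genes homology region (CHR), with the core letters TTTGAA, and CCAAT boxes upstream of it. RefSeq promoter windows (GRCm38.p6, 250 bases before to 50 after the start) were at hand for 36 of the 40 genes, all but Ccna2, Aurkb, Kif20a and Tpx2. TTTGAA on the gene's strand was in the window of 22 of the 36 (61.1%), against 10.2% of all 32851 windows and 9.72% of the 15614 tested genes that had one. On the opposite strand the same letters were in 7 of the 36 (19.4%), against 8.95% of all windows and 8.97% of the tested genes. CCAAT on either strand was in 27 of 36 (75.0%), against 37.4% of all windows and 41.7% of the tested genes. A CCAAT box on either strand upstream of a TTTGAA and at most 60 bases from it was in 17 of 36 (47.2%). That pair was in 0.992% of all windows and 1.04% of the tested genes. A TTTGAA and a CCAAT box can share a letter, as in Cdca8, with TTTGAA at offset 13 from the start and ATTGG at 18. A gene with several windows was counted once if any of them held the motif. Birc5, Mad2l1, Melk, Ncaph, Nuf2 and Nusap1 had neither motif on either strand in their windows. A match of letters is a description and not a bound site. The 150 bases before the start are printed below for Bub1, the gene with the largest difference between growth and starvation, for Espl1, which separated Y721F from WT in both states, and for Cdk1, Cdc20 and Ncapg as 3 members with the CHR letters. Capitals mark TTTGAA on the gene's strand and CCAAT on either strand (ATTGG where it lies on the other one), and each runs 5′ to 3′ on the strand of its gene.
Bub1: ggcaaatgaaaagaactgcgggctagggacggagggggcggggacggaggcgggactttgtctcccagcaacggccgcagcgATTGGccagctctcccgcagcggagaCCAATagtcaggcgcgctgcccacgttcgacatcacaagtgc
Espl1: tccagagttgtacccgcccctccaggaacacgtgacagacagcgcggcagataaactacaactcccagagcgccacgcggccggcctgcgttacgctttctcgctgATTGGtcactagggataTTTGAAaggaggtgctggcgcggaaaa
Cdk1: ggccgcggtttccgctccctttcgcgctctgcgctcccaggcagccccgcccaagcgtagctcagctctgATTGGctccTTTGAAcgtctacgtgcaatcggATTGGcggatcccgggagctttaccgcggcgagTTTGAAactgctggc
Cdc20: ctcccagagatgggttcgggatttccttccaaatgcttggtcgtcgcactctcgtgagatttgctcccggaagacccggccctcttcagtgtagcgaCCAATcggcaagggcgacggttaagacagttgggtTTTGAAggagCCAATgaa
Ncapg: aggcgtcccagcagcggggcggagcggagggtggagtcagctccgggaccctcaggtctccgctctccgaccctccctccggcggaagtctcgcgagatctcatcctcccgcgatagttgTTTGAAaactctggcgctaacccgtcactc
These lie at chr2:127831860-127832009 (minus strand), chr15:102296143-102296292 (plus), chr10:69352913-69353062 (minus), chr4:118437344-118437493 (minus) and chr5:45669775-45669924 (plus). The TTTGAA nearest to the start begins 27 bases before it in Espl1, 15 in Cdk1, 18 in Cdc20 and 30 in Ncapg. Bub1 shows 2 CCAAT boxes, the nearer 42 bases before the start, and no TTTGAA in the stretch shown.

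The 40 genes moved within a narrow band. Their median range over all 32 arrays was 1.29 on the log2 scale, 0.80 within the steady-state arrays and 0.89 within the time course. Averaged over the 40 genes, the highest steady-state group was 3AB grown with 10.23 and 10.17, and the lowest Y721F starved with 9.76 and 9.53. WT grown arrays averaged 10.17 and 10.08 and WT starved arrays 10.21 and 9.93, so these groups overlap. 3AB starved arrays averaged 9.94 and 10.08, 3ABY721 grown arrays 10.11 and 10.00, 3ABY721 starved arrays 10.02 and 9.97, and Y721F grown arrays 9.99 and 9.89. Relative to its median over the 16 steady-state arrays, each gene could lie high or low on an array. On the Y721F starved arrays 39 and 40 of the 40 genes lay below that median, beside 49.1% and 47.5% of all genes. On the 3AB grown arrays 39 and 38 lay above it, beside 47.0% and 47.4% of all genes. Levels were not compared between the experiments: starved cells of the steady state and cells at 0 min of the time course are both CSF-1-starved, yet Nusap1 differed between them by -1.27 in Y721F and by -1.12 in WT. Nuf2 differed by 1.06 in Y721F and 1.15 in WT, and 26.9% of all genes in Y721F and 15.9% in WT lay more than 1.5-fold apart.

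**Figure D1:**
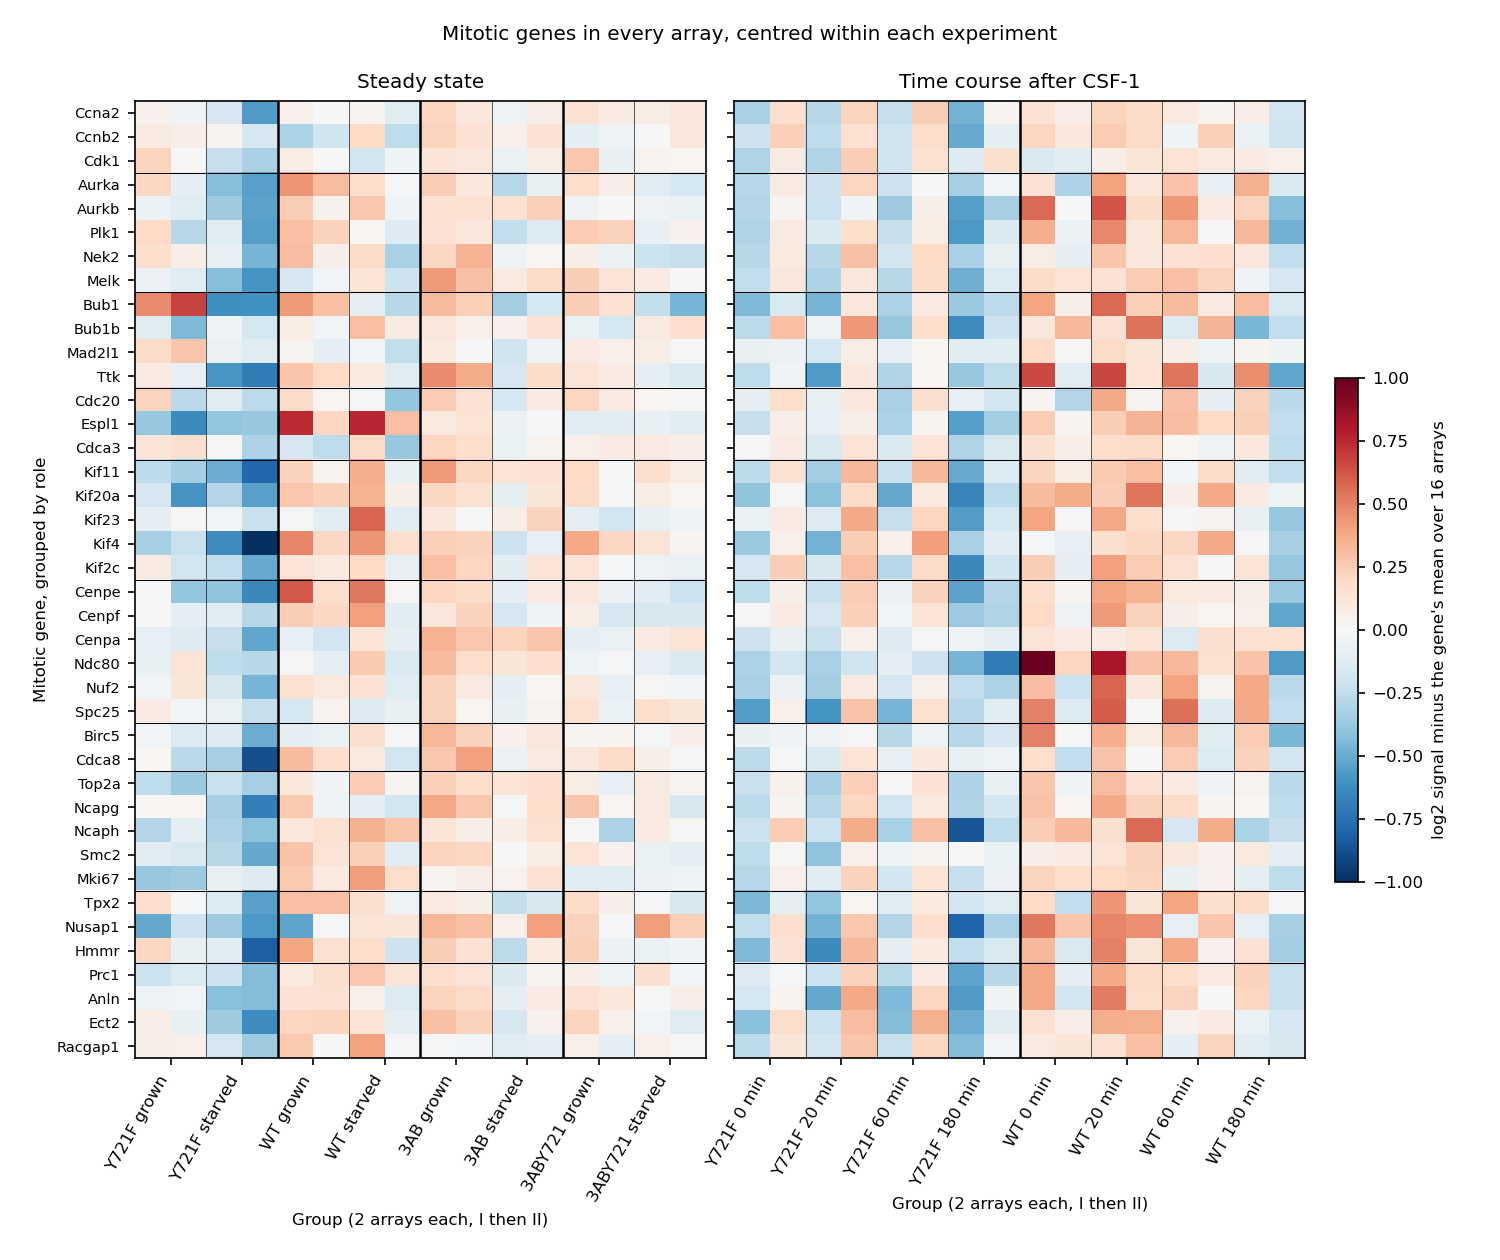
Log2 signal of the 40 mitotic genes (rows, in blocks by role) on each array (columns, 2 per group), minus the gene's mean over the 16 arrays of its experiment, with the colour scale ending at 1 in either direction. Bub1 stands out in grown Y721F cells (10.96 and 11.16), and the Y721F starved arrays are low over most rows.

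**Figure D2:**
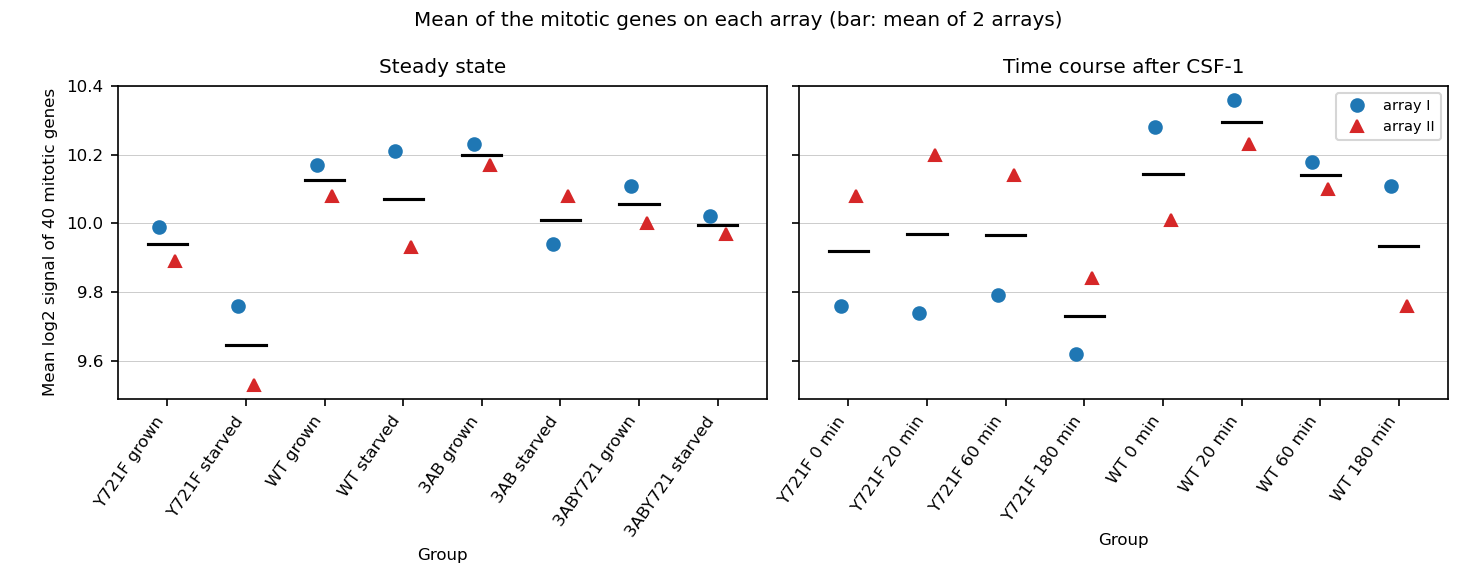
Mean log2 signal of the 40 genes on each array (circles array I, triangles array II, bars the mean of both), by group. Y721F starved arrays are lowest in the steady state (9.76 and 9.53), and in the time course series I and II of Y721F begin apart, at 9.76 and 10.08.

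Whether growth in CSF-1 goes with more mitotic RNA was asked by setting grown against overnight-starved cells of each line. Few of these genes were called, though 36 of 40 differences were positive in Y721F, 24 in WT, 35 in 3AB and 25 in 3ABY721. In Y721F 2 of 40 were called higher, a share close to the 3.48% of all genes called higher in that comparison. Bub1 rose by 1.19 (2.27-fold, SE 0.13, limma adjusted p = 0.000179, 2 arrays a group), and Ttk by 0.65 (1.56-fold, SE 0.14, adjusted p = 0.0148). In WT, 3AB and 3ABY721 limma called 0 of 40 in either direction, beside 5.32%, 0.687% and 1.41% of all genes. There 2, 5 and 1 of the 40 had an unadjusted p under 0.05, beside 20.0%, 12.0% and 12.2% of all genes. A gene is called here where its adjusted p over all 19938 genes is under 0.05 and its fold is above 1.5, that is 0.58 on the log2 scale.

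The median difference over the 40 genes was 0.32 in Y721F, 0.05 in WT, 0.20 in 3AB and 0.06 in 3ABY721, beside medians over all genes of 0.01, -0.03, -0.01 and 0.00. Both grown arrays lay above both starved arrays for 29 of 40 genes in Y721F (25.1% of all genes), 11 in WT (19.5%), 30 in 3AB (26.2%) and 17 in 3ABY721 (24.5%). For 34 of the 40 in 3ABY721, 30 in WT, 26 in 3AB and 16 in Y721F the 95% interval of the difference stayed within 1.5-fold either way, beside 67.4%, 60.9%, 65.3% and 56.5% of all genes. A change of more than 1.5-fold lay outside the interval for most members in WT, 3AB and 3ABY721. After quantile normalization between arrays the Y721F median was 0.14 and 1 member, Bub1, was called (0.98, SE 0.12, limma adjusted p = 0.000498). Of all genes 4.62% were then called in either direction. The Y721F count was 8 without Y721F starved array I, 1 without Y721F starved array II or Y721F grown array I, and 3 without Y721F grown array II. The WT count was 2 without WT grown array II and 1 without WT starved array II. Of all genes called in Y721F, 693 were higher and 292 lower, and after quantile normalization 472 and 450. In 3AB the split was 86 and 51, and after it 57 and 68. The upper quartile of the array was 8.31 and 8.32 in grown against 8.23 and 8.20 in starved Y721F cells, and its part in the result was not tested. Markers of cell identity moved in the same comparisons. Of the 16 macrophage genes 5 were lower in grown than in starved Y721F cells, 4 in WT, 1 in 3AB and 2 in 3ABY721, and 0 were higher. In that order 292, 601, 51 and 134 of all 19938 genes were called lower. List means were 10.08 and 10.14 grown against 10.70 and 10.83 starved in Y721F, 11.02 and 11.00 grown against 11.40 and 11.66 starved in WT, 11.11 and 11.10 grown against 11.39 and 11.46 starved in 3AB and 10.79 and 10.81 grown against 11.32 and 11.18 starved in 3ABY721. Mertk, a receptor for engulfing dead cells, was lower in all 4 lines, with -2.82 on the log2 scale in Y721F (SE 0.17, limma adjusted p = 6.25e-07). Of the granulocyte and mast cell genes Mmp8 (-3.32) and S100a8 (-0.84) were lower in grown Y721F cells and 0 of 14 were called in the other lines, and of fibroblast and lymphocyte genes 0 were called in any line. The part of these markers in the mitotic genes was not tested.

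**Figure D3:**
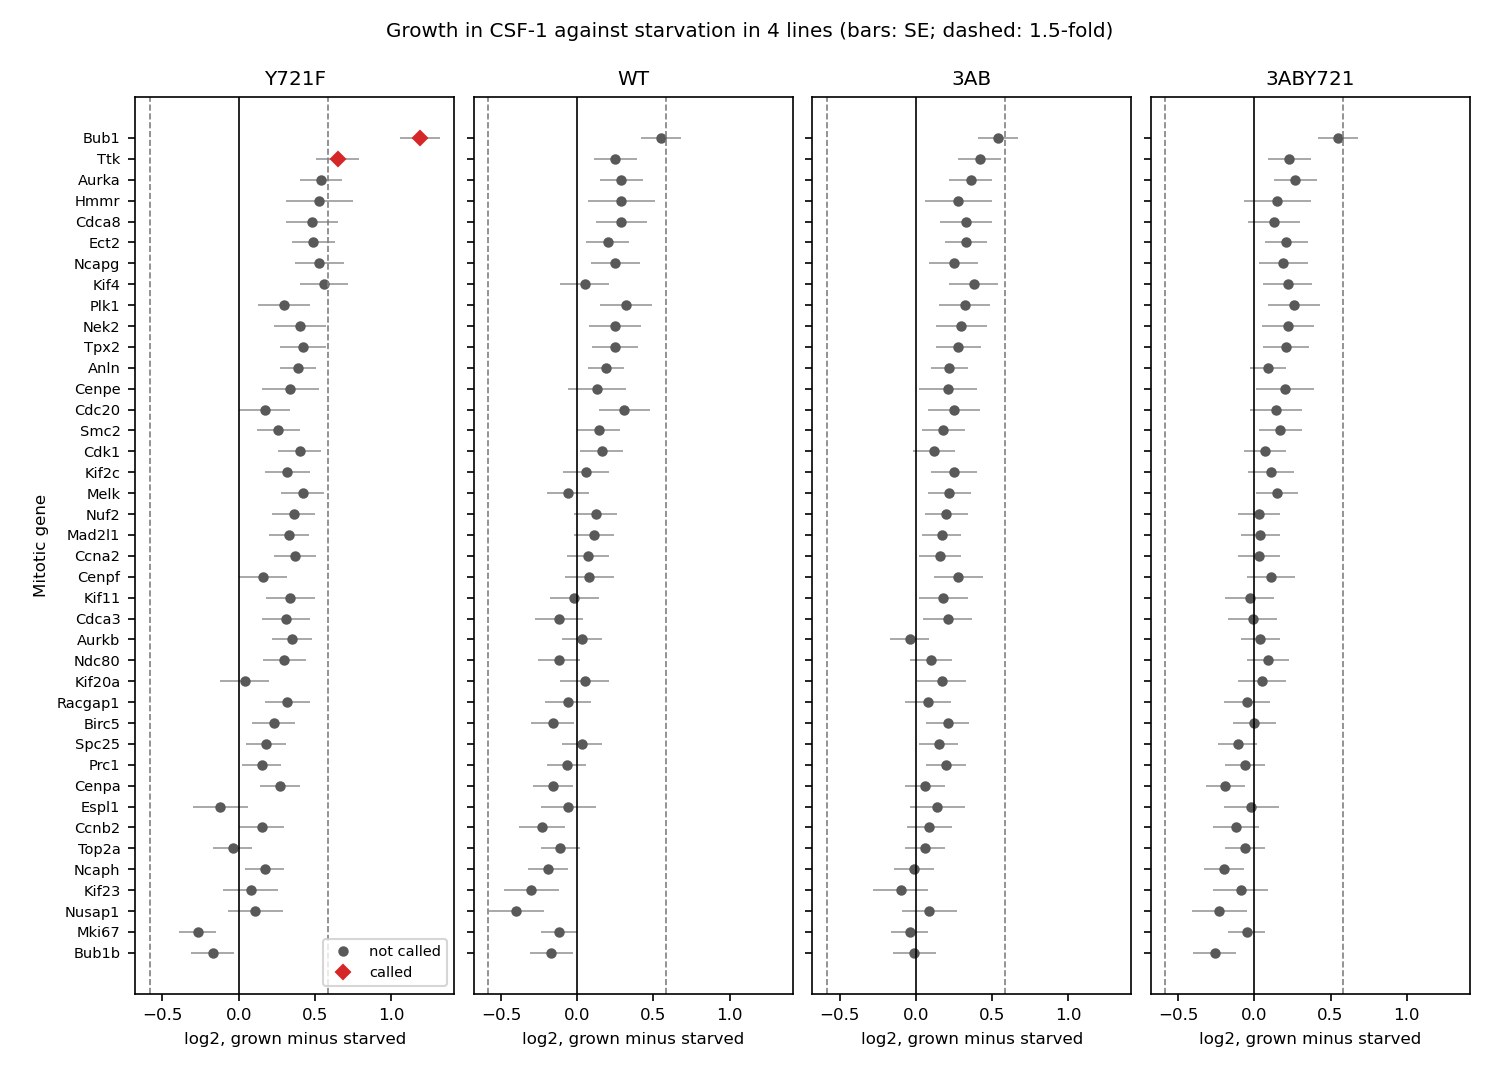
Grown minus starved, log2, for each of the 40 genes (rows, ordered by the mean over the lines) in the 4 lines, with the SE as bars and 1.5-fold as dashed lines. Bub1 is at the top in every line, and Bub1 and Ttk in Y721F are the called values.

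Bub1 encodes a kinase of the spindle checkpoint that loads onto kinetochores and recruits its partners there. Its signal was 10.96 and 11.16 grown against 9.87 and 9.88 starved in Y721F, 10.91 and 10.79 grown against 10.39 and 10.21 starved in WT, 10.80 and 10.72 grown against 10.14 and 10.31 starved in 3AB and 10.73 and 10.63 grown against 10.25 and 10.02 starved in 3ABY721. Both grown arrays lay above both starved ones in each of the 4 lines. The differences were 1.19 in Y721F, 0.55 in WT (SE 0.13, limma adjusted p = 0.0269), 0.54 in 3AB (adjusted p = 0.102) and 0.55 in 3ABY721 (adjusted p = 0.0651), and the last 3, each under 1.5-fold, were not called. The difference of 0.64 between the growth effects of Y721F and WT, tested as such, was not called either (adjusted p = 0.277). The Bub1 call in Y721F held under every alternative run, with adjusted p between 0.00029 and 0.00399 over the omissions of 1 array.

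Ttk encodes MPS1, the kinase that starts checkpoint signalling at unattached kinetochores. Its readings were 8.74 and 8.57 grown against 8.07 and 7.95 starved in Y721F, 8.93 and 8.85 grown against 8.75 and 8.53 starved in WT, 9.12 and 9.02 grown against 8.48 and 8.83 starved in 3AB and 8.78 and 8.73 grown against 8.55 and 8.50 starved in 3ABY721. Grown arrays lay above starved ones in all 4 lines, with the starved Y721F arrays the lowest. The Ttk call was lost after quantile normalization, without Y721F starved array II and without Y721F grown array I. Bub1b, whose product BubR1 inhibits the anaphase-promoting complex, did not share the direction of Bub1. It read 10.73 and 10.41 grown against 10.81 and 10.67 starved in Y721F, 10.92 and 10.82 grown against 11.15 and 10.93 starved in WT, 10.96 and 10.90 grown against 10.89 and 10.99 starved in 3AB and 10.78 and 10.67 grown against 10.94 and 11.02 starved in 3ABY721. Its differences were -0.17 in Y721F, -0.17 in WT, -0.01 in 3AB and -0.26 in 3ABY721, and none was called. The fourth checkpoint gene, Mad2l1, measured 0.33, 0.11, 0.17 and 0.04 in the same order and ranged over 0.53 in all 32 arrays, the narrowest of the 40 genes.

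Cyclins and their kinase came next. Cdk1 encodes the kinase that drives entry into mitosis, and it read 10.75 and 10.53 grown against 10.29 and 10.20 starved in Y721F, 10.60 and 10.52 grown against 10.33 and 10.48 starved in WT, 10.65 and 10.64 grown against 10.46 and 10.60 starved in 3AB and 10.79 and 10.45 grown against 10.56 and 10.54 starved in 3ABY721. Only in 3ABY721 did grown and starved arrays overlap, and the largest difference was 0.40 in Y721F (SE 0.14), not called. Ccna2, the cyclin of S phase and early mitosis, gave 11.26 and 11.17 grown against 11.05 and 10.65 starved in Y721F, 11.26 and 11.21 grown against 11.25 and 11.09 starved in WT, 11.43 and 11.33 grown against 11.16 and 11.28 starved in 3AB and 11.37 and 11.30 grown against 11.29 and 11.33 starved in 3ABY721. Its grown and starved arrays overlapped in WT and 3ABY721. For Ccnb2, a B-type cyclin, the signals were 11.23 and 11.20 grown against 11.17 and 10.97 starved in Y721F, 10.82 and 10.94 grown against 11.34 and 10.88 starved in WT, 11.36 and 11.28 grown against 11.19 and 11.28 starved in 3AB and 11.05 and 11.10 grown against 11.14 and 11.25 starved in 3ABY721. In WT the difference was -0.23 and in 3ABY721 -0.12, while it was 0.15 in Y721F and 0.09 in 3AB, so the 4 lines did not share a direction and none was called.

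Among the 5 mitotic kinases, Aurka, which matures centrosomes and builds spindle poles, had the largest mean growth effect and Aurkb, the kinase of the chromosomal passenger complex, the smallest. Aurka read 10.44 and 10.14 grown against 9.81 and 9.69 starved in Y721F, 10.67 and 10.54 grown against 10.41 and 10.22 starved in WT, 10.48 and 10.34 grown against 9.95 and 10.16 starved in 3AB and 10.41 and 10.29 grown against 10.11 and 10.06 starved in 3ABY721. Grown arrays were above starved ones in all 4 lines, at 0.54, 0.29, 0.36 and 0.27 in Y721F, WT, 3AB and 3ABY721. Aurkb measured 10.63 and 10.57 grown against 10.34 and 10.16 starved in Y721F, 10.94 and 10.74 grown against 10.96 and 10.66 starved in WT, 10.85 and 10.85 grown against 10.85 and 10.93 starved in 3AB and 10.66 and 10.69 grown against 10.64 and 10.63 starved in 3ABY721. Here the groups overlapped in WT and 3AB, and Y721F gave the widest gap, 0.35. Plk1, the Polo-like kinase that acts at each step of mitosis, gave 10.63 and 10.15 grown against 10.31 and 9.88 starved in Y721F, 10.73 and 10.66 grown against 10.45 and 10.30 starved in WT, 10.57 and 10.54 grown against 10.18 and 10.29 starved in 3AB and 10.68 and 10.66 grown against 10.35 and 10.47 starved in 3ABY721. Its 4 differences lay between 0.26 and 0.32, yet the 2 Y721F grown arrays differed so much that they overlapped with the starved ones. Nek2, a centrosome kinase, measured 0.40, 0.25, 0.30 and 0.22, and Melk, a kinase of dividing cells, 0.42, -0.06, 0.22 and 0.15 in the same order of lines. None of the 5 was called in any line.

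The anaphase genes had little in common. Cdc20, the coactivator that turns on the anaphase-promoting complex once the checkpoint is silent, read 9.40 and 8.91 grown against 9.06 and 8.92 starved in Y721F, 9.37 and 9.20 grown against 9.16 and 8.79 starved in WT, 9.43 and 9.32 grown against 9.0 and 9.26 starved in 3AB and 9.39 and 9.27 grown against 9.20 and 9.18 starved in 3ABY721. Grown arrays were above starved ones in WT, 3AB and 3ABY721 but overlapped in Y721F. Espl1 encodes separase, the protease that opens cohesin. It read 8.31 and 8.05 grown against 8.29 and 8.31 starved in Y721F, 9.43 and 8.90 grown against 9.45 and 8.99 starved in WT, 8.78 and 8.82 grown against 8.63 and 8.69 starved in 3AB and 8.57 and 8.57 grown against 8.61 and 8.57 starved in 3ABY721. The growth effect on Espl1 was -0.12 in Y721F, -0.06 in WT, 0.14 in 3AB and -0.02 in 3ABY721, and none was called. The 4 Y721F arrays lay below every array of the other lines. Cdca3, which targets the mitosis inhibitor Wee1 for destruction, measured 0.31, -0.12, 0.21 and -0.01 and was not called.

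Of the 5 Kif genes, which encode kinesins, Kif4, a motor that shapes chromosomes and the central spindle, had the largest mean growth effect. Its signals were 8.58 and 8.69 grown against 8.28 and 7.87 starved in Y721F, 9.40 and 9.12 grown against 9.35 and 9.08 starved in WT, 9.15 and 9.14 grown against 8.70 and 8.83 starved in 3AB and 9.29 and 9.12 grown against 9.04 and 8.94 starved in 3ABY721. The gap was 0.56 in Y721F and 0.38 in 3AB, and in WT the arrays overlapped. Kif23, a motor of the central spindle in cytokinesis, had the smallest, with 10.57 and 10.68 grown against 10.64 and 10.45 starved in Y721F, 10.65 and 10.56 grown against 11.25 and 10.55 starved in WT, 10.78 and 10.67 grown against 10.74 and 10.90 starved in 3AB and 10.58 and 10.48 grown against 10.60 and 10.63 starved in 3ABY721. In WT array I of the starved cells was the highest of the 16. Kif20a, which brings passenger proteins to the central spindle, gave 9.59 and 9.17 grown against 9.47 and 9.22 starved in Y721F, 10.03 and 10.00 grown against 10.11 and 9.82 starved in WT, 9.97 and 9.91 grown against 9.66 and 9.88 starved in 3AB and 9.95 and 9.76 grown against 9.83 and 9.78 starved in 3ABY721. Its growth effect lay between 0.04 and 0.17 in the 4 lines. Kif11, the motor that pushes spindle poles apart, measured 0.34, -0.02, 0.18 and -0.03, and Kif2c, which takes apart microtubule ends at kinetochores, 0.32, 0.06, 0.25 and 0.11 in Y721F, WT, 3AB and 3ABY721.

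At the kinetochore, Cenpe, a motor that carries chromosomes to the spindle equator, read 9.08 and 8.69 grown against 8.67 and 8.43 starved in Y721F, 9.69 and 9.25 grown against 9.60 and 9.09 starved in WT, 9.29 and 9.26 grown against 8.98 and 9.16 starved in 3AB and 9.19 and 9.02 grown against 8.96 and 8.86 starved in 3ABY721. Grown arrays were above starved ones in every line but WT. Cenpa, the histone variant that marks centromeres, gave 10.18 and 10.13 grown against 10.03 and 9.74 starved in Y721F, 10.18 and 10.07 grown against 10.40 and 10.17 starved in WT, 10.61 and 10.53 grown against 10.48 and 10.54 starved in 3AB and 10.17 and 10.19 grown against 10.34 and 10.40 starved in 3ABY721. There the direction differed between lines, with 0.27 in Y721F and -0.19 in 3ABY721, neither called. Cenpf, Ndc80, Nuf2 and Spc25, of which the last 3 belong to the NDC80 complex that grips microtubules, measured between 0.16 and 0.36 in Y721F and between -0.12 and 0.12 in WT. None of the 6 was called in any line.

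The chromosomal passengers Cdca8 and Birc5 hold Aurora B at the centromere. Cdca8, which encodes borealin, read 9.80 and 9.51 grown against 9.45 and 8.90 starved in Y721F, 10.10 and 9.95 grown against 9.88 and 9.59 starved in WT, 10.05 and 10.19 grown against 9.72 and 9.87 starved in 3AB and 9.89 and 9.97 grown against 9.84 and 9.77 starved in 3ABY721. Both grown arrays lay above both starved ones in all 4 lines, at 0.48, 0.29, 0.33 and 0.13, without a call. Birc5, which encodes survivin, gave 9.03 and 8.92 grown against 8.93 and 8.56 starved in Y721F, 8.96 and 8.99 grown against 9.22 and 9.04 starved in WT, 9.39 and 9.29 grown against 9.10 and 9.17 starved in 3AB and 9.09 and 9.09 grown against 9.05 and 9.13 starved in 3ABY721. It had opposite signs in Y721F (0.23) and WT (-0.16).

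Genes of chromosome structure split as well. Ncapg, a condensin subunit, read 9.71 and 9.71 grown against 9.36 and 9.01 starved in Y721F, 9.95 and 9.65 grown against 9.59 and 9.51 starved in WT, 10.08 and 9.96 grown against 9.67 and 9.87 starved in 3AB and 9.97 and 9.71 grown against 9.78 and 9.53 starved in 3ABY721. The difference was 0.53 in Y721F and 0.25, 0.25 and 0.19 in WT, 3AB and 3ABY721. Mki67, whose product Ki-67 coats mitotic chromosomes and is the common stain for dividing cells, measured 10.39 and 10.42 grown against 10.70 and 10.64 starved in Y721F, 11.03 and 10.87 grown against 11.19 and 10.95 starved in WT, 10.81 and 10.84 grown against 10.81 and 10.92 starved in 3AB and 10.67 and 10.67 grown against 10.71 and 10.73 starved in 3ABY721. Its difference was negative in each line, and in Y721F both grown arrays lay below both starved ones (-0.27, SE 0.12, not called). Top2a, the topoisomerase that untangles sister chromatids, gave 10.82 and 10.70 grown against 10.85 and 10.74 starved in Y721F, 11.18 and 11.04 grown against 11.33 and 11.10 starved in WT, 11.31 and 11.25 grown against 11.20 and 11.24 starved in 3AB and 11.15 and 10.99 grown against 11.16 and 11.10 starved in 3ABY721. The 4 differences lay between -0.11 and 0.06. Ncaph and Smc2, also condensin subunits, measured 0.17 and 0.26 in Y721F and -0.19 and 0.14 in WT.

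For spindle assembly, Hmmr, which binds microtubules near the poles, read 9.26 and 8.98 grown against 8.94 and 8.24 starved in Y721F, 9.45 and 9.21 grown against 9.23 and 8.85 starved in WT, 9.30 and 9.20 grown against 8.79 and 9.15 starved in 3AB and 9.29 and 9.0 grown against 8.99 and 9.01 starved in 3ABY721. The starved Y721F array II was the lowest of the 16. Nusap1, which bundles spindle microtubules, gave 9.12 and 9.42 grown against 9.27 and 9.06 starved in Y721F, 9.10 and 9.61 grown against 9.76 and 9.75 starved in WT, 9.96 and 9.93 grown against 9.68 and 10.04 starved in 3AB and 9.86 and 9.61 grown against 10.05 and 9.87 starved in 3ABY721. It lay lower grown than starved on both arrays in WT and in 3ABY721, at -0.40 and -0.23 without a call. Tpx2, which activates Aurora A on the spindle, measured 0.42, 0.25, 0.28 and 0.21 in Y721F, WT, 3AB and 3ABY721.

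Cytokinesis genes closed the list. Ect2, the exchange factor that starts the cleavage furrow, read 10.20 and 10.06 grown against 9.78 and 9.51 starved in Y721F, 10.35 and 10.36 grown against 10.27 and 10.04 starved in WT, 10.43 and 10.37 grown against 9.97 and 10.18 starved in 3AB and 10.36 and 10.19 grown against 10.11 and 10.02 starved in 3ABY721. Grown arrays were above starved ones in all 4 lines, at 0.49, 0.20, 0.33 and 0.21. Prc1, which cross-links the central spindle, gave 9.81 and 9.89 grown against 9.82 and 9.59 starved in Y721F, 10.12 and 10.18 grown against 10.29 and 10.15 starved in WT, 10.19 and 10.15 grown against 9.88 and 10.06 starved in 3AB and 10.09 and 9.98 grown against 10.18 and 10.00 starved in 3ABY721. Only 3AB kept its grown and starved arrays apart. Anln, a scaffold of the contractile ring, measured 0.39, 0.19, 0.22 and 0.09, and Racgap1, a partner of Kif23, 0.32, -0.06, 0.08 and -0.05. None of the 4 was called.

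The second question was whether lines without Tyr-721 differ from those with it. In starved cells 8 of the 40 genes were lower in Y721F than in WT, beside 7.66% of all genes called lower, and none was higher. Kif4 was lower by 1.14 (2.20-fold, SE 0.16, limma adjusted p = 0.000299, 2 arrays a group) and Espl1 by 0.92 (SE 0.18, adjusted p = 0.00316). The other 6 were Cenpe at -0.80 (SE 0.19, adjusted p = 0.0127), Kif11 at -0.79 (SE 0.16, adjusted p = 0.00504), Ncaph at -0.68 (SE 0.13, adjusted p = 0.00358), Ttk at -0.63 (SE 0.14, adjusted p = 0.00796), Kif20a at -0.62 and Nusap1 at -0.59 (adjusted p = 0.0178 and 0.0387). Kif4, Kif11, Kif20a and Cenpe all encode kinesin motors. At any fold 20 of the 40 had an adjusted p under 0.05, beside 10.9% of all genes, and the other 12 included Aurka (-0.57), Aurkb (-0.56), Bub1 (-0.43) and Mki67 (-0.40). The difference was negative for 38 of 40, with Mad2l1 at 0.05 and Cdc20 at 0.02 as the exceptions, the median was -0.41 against -0.01 over all genes, and both Y721F arrays lay below both WT arrays for 30 of 40, beside 30.8% of all genes.

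The single arrays show how far apart the lines were. Starved Y721F cells read 8.28 and 7.87 for Kif4, against 9.35 and 9.08 in starved WT cells. Espl1 read 8.29 and 8.31 in starved Y721F cells, against 9.45 and 8.99 in starved WT cells. For both genes the gap between the groups was wider than the spread within either. Kif11 read 9.42 and 9.13 in starved Y721F cells, against 10.28 and 9.84 in starved WT cells. Ncaph read 9.61 and 9.51 in starved Y721F cells, against 10.28 and 10.20 in starved WT cells. The Kif11 groups were separated by about as much as the WT arrays differ from each other, whereas the Ncaph arrays of each group lay close together.

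In grown cells 3 of 40 were lower in Y721F than in WT, beside 4.94% of all genes. They were Espl1 at -0.99 (1.98-fold, SE 0.18, limma adjusted p = 0.00269), Kif20a at -0.64 (SE 0.16, adjusted p = 0.0222) and Kif4 at -0.63 (SE 0.16, adjusted p = 0.0219). The median was -0.20 against 0.05 over all genes, and 11 of 40 differences were positive, with Cdca3 the highest at 0.36. Both Y721F arrays lay below both WT arrays for 21 of 40, beside 19.2% of all genes.

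These line differences depended on the scaling of the arrays. After quantile normalization 2 members were still called in starved cells, Kif4 (-0.92, SE 0.15, limma adjusted p = 0.00123) and Espl1 (-0.67, SE 0.17, adjusted p = 0.021). In grown cells 1 member was, Espl1 (-0.87, SE 0.17, adjusted p = 0.0057). Of all genes 8.32% starved and 7.43% grown were then called in either direction, and 886 and 794 of 19938 were called lower. The medians of the members were -0.18 and -0.10. Of all genes called in starved cells 692 were higher and 1527 lower in Y721F, and after quantile normalization 773 and 886. The upper quartile of the array was 8.23 and 8.20 in starved Y721F cells against 8.43 and 8.43 in starved WT cells. The starved count was 3 without WT starved array I or without Y721F starved array II, 16 without WT starved array II and 14 without Y721F starved array I. The grown count was 1 without WT grown array I or Y721F grown array II and 4 without WT grown array II. Kif4 in starved cells and Espl1 in both states kept their calls in each omission of 1 array and under each other alternative. The time course did not repeat these gaps in its starved cells at 0 min, where the arrays of both lines overlapped. There Kif4 read 8.61 and 9.03 in Y721F against 8.97 and 8.90 in WT. Espl1 read 8.50 and 8.80 in Y721F against 8.99 and 8.76 in WT, and neither gene was called.

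Markers of cell identity moved with these differences. Of 16 macrophage genes 6 were lower in starved Y721F than in starved WT cells, with list means of 10.70 and 10.83 against 11.40 and 11.66, and of 12 fibroblast genes 2 were higher, with list means of 6.22 and 6.30 against 5.88 and 5.75. The 2 were Pdgfra, at 8.83 and 8.93 in starved Y721F against 7.65 and 7.12 in starved WT cells, and Col6a1, at 7.18 and 7.74 against 6.87 and 6.56. Of all genes 7.66% were called lower and 692 of 19938 higher in starved Y721F cells. After quantile normalization 3 macrophage genes were lower there, beside 886 of 19938 genes. In grown cells 5 macrophage genes were lower, with list means of 10.08 and 10.14 in Y721F against 11.02 and 11.00 in WT. There 1 fibroblast gene, Pdgfra, was higher (2.05, SE 0.36, limma adjusted p = 0.00222). Of all genes 4.94% were called lower and 587 of 19938 higher in grown Y721F cells. The largest marker differences were those of Fcgr1, an antibody receptor, and of Mmp8, a collagenase from the granulocyte list and the 1 of its 14 genes called in either state. Fcgr1 read 7.27 and 7.58 in starved Y721F against 11.79 and 11.82 in starved WT cells, and 5.99 and 6.12 in grown Y721F against 11.61 and 10.81 in grown WT cells. Mmp8 read 8.11 and 9.94 in starved Y721F against 12.70 and 12.29 in starved WT cells, and 5.0 and 6.41 in grown Y721F against 11.60 and 11.25 in grown WT cells. Between 3AB and 3ABY721, 3 macrophage genes were higher grown and 1 starved, Mertk in both, beside 108 and 49 of 19938 genes. No gene of the other marker lists was called. Between Y721F and WT, Csf1r itself measured -0.57 in grown cells (SE 0.12, limma adjusted p = 0.0067), just under the fold needed for a call. The lymphocyte list averaged 5.19 and 5.13 in starved Y721F against 5.08 and 4.96 in starved WT cells, with 0 of 10 called. The part of any of these in the mitotic genes was not tested.

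The other pair of lines that differ in Tyr-721 did not show lower signals of the mitotic genes in the line without it. Between 3AB and 3ABY721 limma called 0 of 40 in grown cells and 0 of 40 in starved cells, beside 1.18% and 0.617% of all genes. At an unadjusted p under 0.05 there were 2 and 0 of the 40, beside 11.3% and 8.43% of all genes. The median was 0.16 grown and 0.02 starved, beside -0.01 and 0.00 over all genes. In grown cells 35 of 40 differences were positive, the opposite direction to most of those between Y721F and WT. In starved cells 21 of 40 were positive. The 95% interval stayed within 1.5-fold for 35 and 39 of the 40, beside 66.4% and 70.8% of all genes. Espl1 read 8.78 and 8.82 in grown 3AB cells against 8.57 and 8.57 in grown 3ABY721 cells (0.23, SE 0.18), and Kif4 read 8.70 and 8.83 in starved 3AB cells against 9.04 and 8.94 in starved 3ABY721 cells (-0.23, SE 0.16). Cenpa had the widest gap of the grown cells, 0.39 (adjusted p = 0.236).

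The difference between both pairs was then tested as 1 contrast, Y721F minus WT less 3AB minus 3ABY721, added after these values were seen. In starved cells 7 of 40 genes were called lower, beside 6.91% of all genes, and in grown cells 2 of 40, beside 4.85%. In starved cells these were Espl1 at -0.99 (SE 0.25, limma adjusted p = 0.0221), Cenpe at -0.96, Kif4 at -0.92 (SE 0.22, adjusted p = 0.0188), Aurkb at -0.82, Kif11 at -0.81, Ttk at -0.76 and Ncaph at -0.75. In grown cells they were Espl1 at -1.22 (SE 0.25, adjusted p = 0.00754) and Mki67 at -0.70 (SE 0.17, adjusted p = 0.0229). After quantile normalization limma called 0 of 40 in starved cells, beside 7.5% of all genes called in either direction. In grown cells Espl1 (-1.02, adjusted p = 0.0209) and Mki67 (-0.61, adjusted p = 0.0428) were called lower. Of all genes 7.0% were called there in either direction, and 740 of 19938 were called lower. Of all genes called in starved cells 648 were higher and 1378 lower, and after quantile normalization 702 and 794. In starved cells 0 were called without WT starved array I, Y721F starved array II, 3ABY721 starved array II or 3AB starved array II, 3 without 3ABY721 starved array I and 12 without WT starved array II. In grown cells the count was 5 without Y721F grown array I, 3 without WT grown array II and 1 without WT grown array I or any array of grown 3AB or 3ABY721 cells, where Espl1 kept its call and Mki67 lost it. Because WT, Y721F, 3AB and 3ABY721 are separate lines, this says that the 2 pairs differ and not which property of the lines does so.

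**Figure D4:**
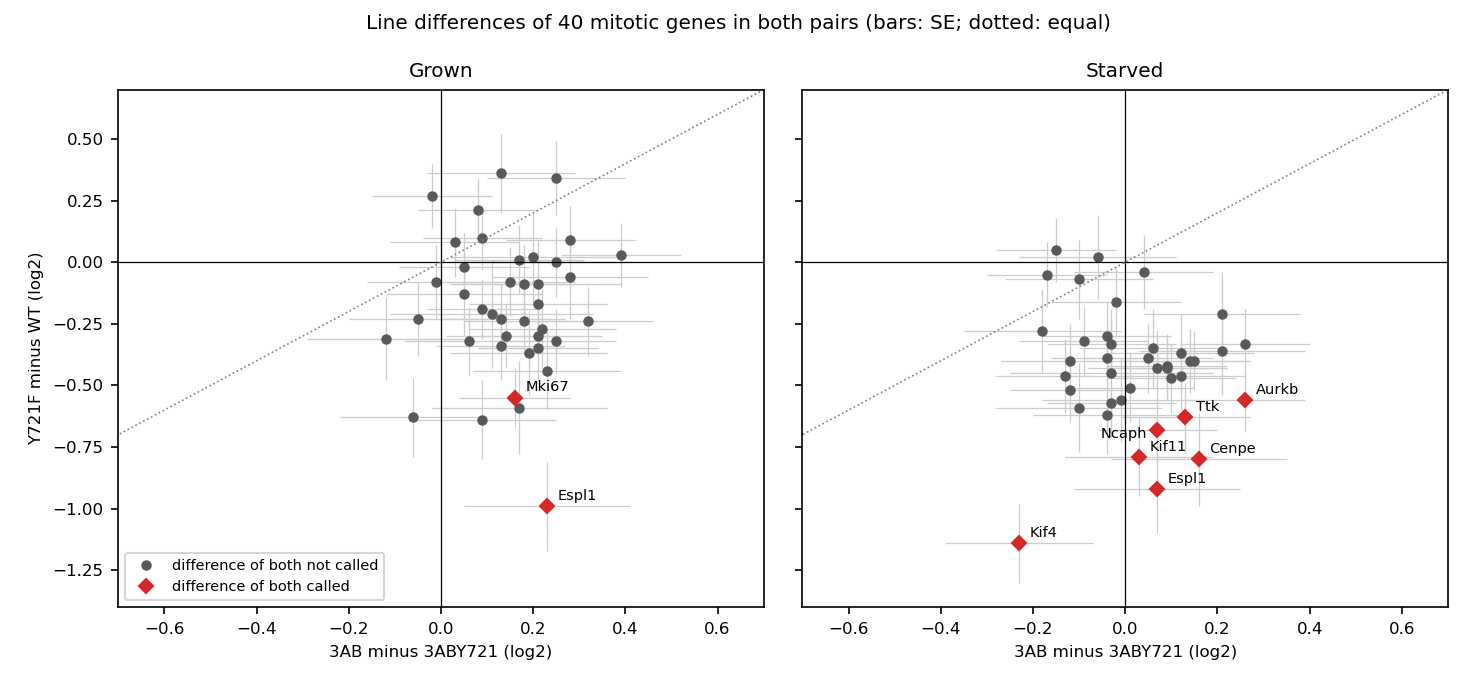
Y721F minus WT (vertical) against 3AB minus 3ABY721 (horizontal), log2, for each of the 40 genes in grown and in starved cells, with SE as bars, equality as a dotted line and genes with a called difference of both pairs in red. Most genes of the starved cells lie below 0 on the vertical axis and near 0 on the horizontal one.

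The differences between the growth effects of 2 lines were not called for any of the 40 genes. Between Y721F and WT the median was 0.25 and the largest was Bub1 at 0.64, beside 0.0903% of all genes called. At an unadjusted limma p under 0.05 there were 4 of 40, beside 12.7% of all genes. Between 3AB and 3ABY721 the median was 0.13 and the largest was Nusap1 at 0.31, beside 0.00502% of all genes called, with 0 of 40 at an unadjusted p under 0.05, beside 2.21%.

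The time course asked how fast starved cells respond. Limma called 0 of 40 mitotic genes at 20, 60 or 180 min in Y721F, beside 0.0802%, 0.176% and 0.261% of all genes, and 0 of 40 in WT, beside 0.16%, 0.632% and 2.16%. At an unadjusted p under 0.05 there were 0 members at each time in Y721F, beside 6.81%, 5.34% and 13.3% of all genes, and 0, 0 and 3 in WT, beside 2.19%, 11.8% and 14.6%. The median difference from 0 min was 0.06, 0.05 and -0.18 in Y721F and 0.14, -0.03 and -0.21 in WT at 20, 60 and 180 min. The median SE of a member was 0.22, so changes under 1.5-fold were seldom resolved, and the 95% interval stayed within 1.5-fold at 180 min for 13 of 40 in Y721F and 9 of 40 in WT, beside 65.4% and 65.1% of all genes. No member was called by limma for a difference between the responses of Y721F and WT at any time, beside 0.0% of all genes. At an unadjusted p under 0.05 there were 0 members at each time, beside 4.06%, 3.21% and 1.39% of all genes.

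Arrays with the same number deviated together in the time course, so each series was also read against its own 0 min array. At 180 min 28 of 40 genes were below 0 min in Y721F series I, 39 in Y721F series II, 32 in WT series I and 34 in WT series II, beside 53.7%, 47.8%, 48.7% and 50.0% of all genes. The medians were -0.15, -0.24, -0.17 and -0.27. For 26 of 40 genes (65.0%) the value was below 0 min in all 4 series, beside 20.6% of all genes. The 14 others were Cdk1, Aurka, Nek2, Bub1, Cdc20, Kif4, Cenpa, Nuf2, Spc25, Cdca8, Smc2, Mki67, Tpx2 and Hmmr. At 20 min 40 of 40 were above 0 min in WT series II and 34 in Y721F series II, beside 51.7% and 47.3% of all genes. In series I these were 28 in WT and 15 in Y721F, beside 47.8% and 57.3% of all genes. The step at 20 min was thus seen mainly in series II of both lines.

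**Figure D5:**
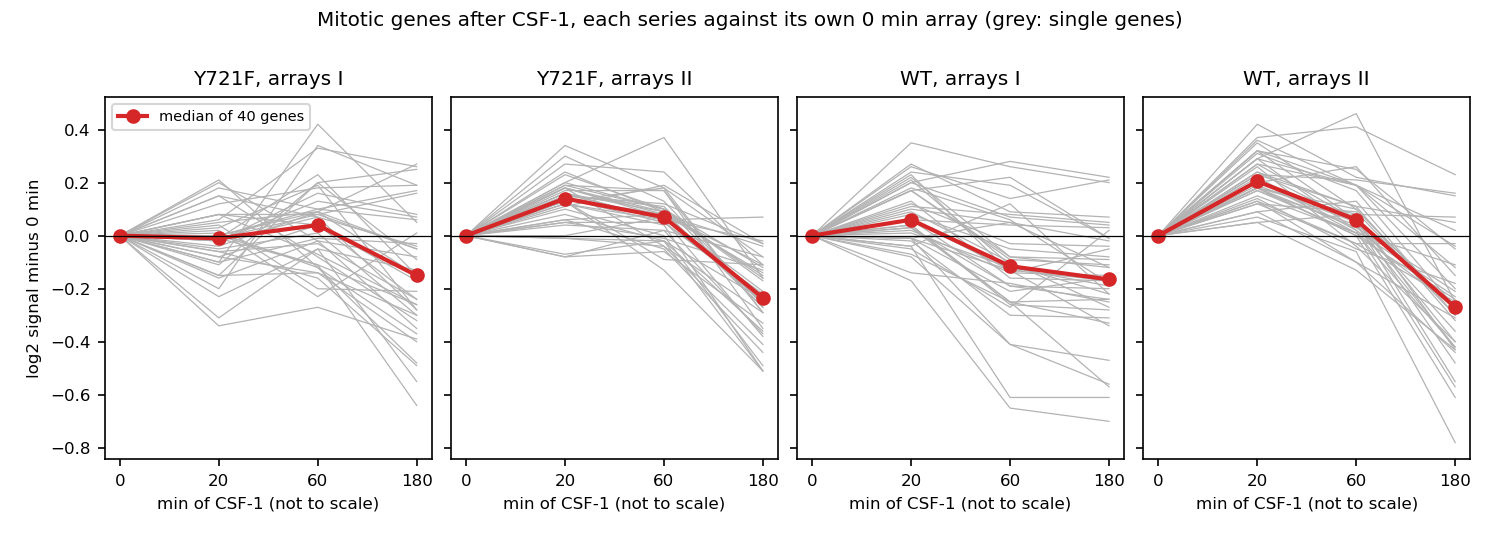
Log2 signal of each of the 40 genes (grey) and their median (red) at 0, 20, 60 and 180 min of CSF-1, minus the 0 min array of the same series. The medians at 180 min are -0.15 and -0.24 in Y721F and -0.17 and -0.27 in WT.

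When the series of a line entered the fit as a block, 2 members were lower at 180 min in WT, beside 7.81% of all genes called in either direction. They were Ndc80 at -0.74 (SE 0.15, limma adjusted p = 0.00885) and Nusap1 at -0.61 (SE 0.14, adjusted p = 0.0163), and 0 were called in Y721F, beside 5.39%. Ndc80 gave 8.52, 8.51, 8.75 and 8.37 in Y721F series I, 8.65, 8.64, 8.63 and 8.14 in Y721F series II, 9.82, 9.65, 9.17 and 9.12 in WT series I and 9.05, 9.12, 8.99 and 8.27 in WT series II at 0, 20, 60 and 180 min. WT series I lies above WT series II at every time, and each is lowest at 180 min. Nusap1 gave 10.23, 10.00, 10.18 and 9.68 in Y721F series I, 10.64, 10.74, 10.64 and 10.15 in Y721F series II, 11.00, 10.96, 10.39 and 10.39 in WT series I and 10.75, 10.93, 10.75 and 10.14 in WT series II. All 4 series end below where they began. Between Y721F and WT at 0 min limma called 0 of 40, beside 0.727% of all genes, and 2 had an unadjusted p under 0.05, beside 9.63%. The median of that line difference at 0 min was -0.21, and 38 of 40 were negative.

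Single genes show how small the steps were beside the gap between series. Values are given at 0, 20, 60 and 180 min. Cdk1 read 10.93, 10.93, 11.03 and 11.10 in Y721F series I, 11.32, 11.48, 11.38 and 11.39 in Y721F series II, 11.09, 11.29, 11.37 and 11.31 in WT series I and 11.12, 11.35, 11.33 and 11.28 in WT series II. Ccna2 read 11.39, 11.44, 11.48 and 11.24 in Y721F series I, 11.88, 11.94, 11.96 and 11.74 in Y721F series II, 11.86, 11.94, 11.81 and 11.78 in WT series I and 11.78, 11.90, 11.75 and 11.53 in WT series II. In both, series II of Y721F lies above series I at every time. Ccnb2 gave 11.62, 11.57, 11.63 and 11.32 in Y721F series I, 12.06, 11.98, 12.00 and 11.73 in Y721F series II, 12.04, 12.08, 11.78 and 11.76 in WT series I and 11.93, 12.02, 12.06 and 11.63 in WT series II, with its lowest value of each series at 180 min.

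Of the kinases, Plk1 read 10.31, 10.46, 10.38 and 10.03 in Y721F series I, 10.70, 10.78, 10.68 and 10.46 in Y721F series II, 10.97, 11.09, 10.94 and 10.93 in WT series I and 10.55, 10.72, 10.59 and 10.13 in WT series II. Aurka measured 9.74, 9.82, 9.82 and 9.69 in Y721F series I, 10.11, 10.24, 10.02 and 10.00 in Y721F series II, 10.17, 10.43, 10.31 and 10.38 in WT series I and 9.72, 10.14, 9.94 and 9.87 in WT series II. Its highest value is at 20 min in both WT series and in Y721F series II. Aurkb read 10.79, 10.87, 10.72 and 10.53 in Y721F series I, 11.12, 11.04, 11.14 and 10.75 in Y721F series II, 11.65, 11.71, 11.52 and 11.31 in WT series I and 11.09, 11.27, 11.17 and 10.66 in WT series II. For Aurkb WT series I is the highest of the 4 throughout. Bub1, the member with the largest mean growth effect, read 9.95, 9.93, 10.08 and 10.02 in Y721F series I, 10.24, 10.51, 10.48 and 10.13 in Y721F series II, 10.79, 10.96, 10.71 and 10.70 in WT series I and 10.45, 10.63, 10.48 and 10.24 in WT series II and did not move by more than 0.18 on average at 20 or 180 min in either line. Bub1b gave 10.07, 10.28, 9.95 and 9.70 in Y721F series I, 10.63, 10.76, 10.50 and 10.12 in Y721F series II, 10.44, 10.47, 10.19 and 9.87 in WT series I and 10.65, 10.87, 10.67 and 10.08 in WT series II. Its 180 min value is the lowest of each series.

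Cdc20 measured 8.98, 9.0, 8.75 and 8.99 in Y721F series I, 9.25, 9.18, 9.23 and 8.89 in Y721F series II, 9.10, 9.45, 9.36 and 9.30 in WT series I and 8.78, 9.10, 8.97 and 8.80 in WT series II. Espl1 measured 8.50, 8.65, 8.42 and 8.18 in Y721F series I, 8.80, 8.79, 8.76 and 8.39 in Y721F series II, 8.99, 8.98, 9.04 and 8.97 in WT series I and 8.76, 9.07, 8.93 and 8.49 in WT series II. In Y721F the 180 min values of Espl1 are below both 0 min values. Among kinesins, Kif4 gave 8.61, 8.51, 9.03 and 8.66 in Y721F series I, 9.03, 9.23, 9.40 and 8.87 in Y721F series II, 8.97, 9.14, 9.19 and 8.96 in WT series I and 8.90, 9.19, 9.36 and 8.65 in WT series II. Its highest value is at 60 min in all 4 series. Kif20a gave 9.63, 9.62, 9.52 and 9.37 in Y721F series I, 10.04, 10.22, 10.13 and 9.77 in Y721F series II, 10.35, 10.28, 10.10 and 10.11 in WT series I and 10.40, 10.57, 10.41 and 9.98 in WT series II. Kif23 gave 10.31, 10.25, 10.15 and 9.82 in Y721F series I, 10.46, 10.76, 10.59 and 10.20 in Y721F series II, 10.77, 10.76, 10.36 and 10.30 in WT series I and 10.36, 10.55, 10.41 and 10.00 in WT series II. Kif23 is lowest at 180 min in all 4 series. Cenpe read 9.39, 9.42, 9.58 and 9.11 in Y721F series I, 9.70, 9.89, 9.87 and 9.35 in Y721F series II, 9.82, 10.04, 9.74 and 9.70 in WT series I and 9.67, 9.99, 9.73 and 9.27 in WT series II. Its 180 min value is the lowest in all 4 series. Cenpa read 10.36, 10.35, 10.44 and 10.52 in Y721F series I, 10.50, 10.62, 10.56 and 10.48 in Y721F series II, 10.70, 10.65, 10.43 and 10.72 in WT series I and 10.65, 10.70, 10.73 and 10.72 in WT series II. Cenpa stayed within 0.38 over all 16 arrays.

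Cdca8 gave 9.29, 9.41, 9.47 and 9.48 in Y721F series I, 9.54, 9.69, 9.66 and 9.51 in Y721F series II, 9.73, 9.84, 9.81 and 9.78 in WT series I and 9.31, 9.55, 9.42 and 9.36 in WT series II. Birc5 gave 9.04, 9.08, 8.84 and 8.83 in Y721F series I, 9.08, 9.13, 9.07 and 8.95 in Y721F series II, 9.62, 9.48, 9.44 and 9.37 in WT series I and 9.10, 9.19, 9.0 and 8.66 in WT series II. For both, WT series I is the highest of the 4 at every time. Top2a read 10.40, 10.29, 10.60 and 10.31 in Y721F series I, 10.67, 10.86, 10.77 and 10.55 in Y721F series II, 10.90, 10.93, 10.71 and 10.66 in WT series I and 10.59, 10.77, 10.59 and 10.35 in WT series II. Mki67 gave 11.61, 11.79, 11.71 and 11.67 in Y721F series I, 11.95, 12.13, 12.03 and 11.84 in Y721F series II, 12.12, 12.10, 11.82 and 11.81 in WT series I and 12.07, 12.12, 11.94 and 11.64 in WT series II, a range of 0.52 over the 16 arrays. Ncapg measured 9.22, 9.20, 9.29 and 9.18 in Y721F series I, 9.51, 9.69, 9.58 and 9.30 in Y721F series II, 9.77, 9.86, 9.67 and 9.50 in WT series I and 9.50, 9.71, 9.51 and 9.23 in WT series II. Hmmr read 8.77, 8.57, 9.11 and 8.96 in Y721F series I, 9.35, 9.53, 9.31 and 9.06 in Y721F series II, 9.53, 9.71, 9.59 and 9.35 in WT series I and 9.06, 9.33, 9.25 and 8.86 in WT series II. Its Y721F series I is lower than the other 3 at 0, 20 and 60 min. Ect2 gave 9.69, 9.89, 9.67 and 9.61 in Y721F series I, 10.28, 10.41, 10.46 and 9.99 in Y721F series II, 10.26, 10.47, 10.15 and 10.04 in WT series I and 10.17, 10.46, 10.19 and 9.94 in WT series II. Prc1 gave 9.79, 9.71, 9.65 and 9.39 in Y721F series I, 9.91, 10.15, 10.00 and 9.64 in Y721F series II, 10.31, 10.30, 10.10 and 10.15 in WT series I and 9.82, 10.11, 10.01 and 9.70 in WT series II. Both end below 0 min in all 4 series.

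Related lists of genes place these values. In Y721F growth against starvation, 13 of 72 other mitotic genes rose, led by Cdc25c, the phosphatase that activates CDK1, at 1.18 (SE 0.16, limma adjusted p = 0.000797), and Cks1b, a small CDK-binding protein gene, at 0.85 (SE 0.21, adjusted p = 0.0311). Of all genes 3.48% were called higher there. The list's median was 0.34, and 7 were called after quantile normalization, beside 472 of 19938 genes called higher. In WT 1 of the 72, the microtubule regulator Stmn1, fell by 0.63 and 0 rose, and in 3AB and 3ABY721 0 were called. Of all genes 5.32%, 0.687% and 1.41% were called in either direction in WT, 3AB and 3ABY721. Of 46 genes of G1/S and DNA replication 1 rose in Y721F, Gins3 at 0.83, beside the same 3.48% of all genes. In the other lines 0 of the 46 were called. In starved cells 24 of the 72 and 15 of the 46 were lower in Y721F than in WT, with medians of -0.50 and -0.32. After quantile normalization 9 and 1 were lower. Of all genes 7.66% were called lower in starved Y721F cells, and 886 of 19938 after quantile normalization. Of 18 genes of the DREAM, RB and E2F regulators, which switch cell cycle promoters, 7 were lower in that comparison, and 1 after quantile normalization.

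A few genes that act in G1 moved more with growth. Ccnd1, the G1 cyclin induced by growth factors, rose in all 4 lines, by 2.18 in Y721F (SE 0.44, limma adjusted p = 0.0092), 3.29 in WT (adjusted p = 0.000714), 2.53 in 3AB (adjusted p = 0.0168) and 2.75 in 3ABY721 (adjusted p = 0.00474). Ccnd2 rose in WT, 3AB and 3ABY721 by 2.70, 2.69 and 2.14 and measured 1.03 in Y721F (SE 0.33, adjusted p = 0.0795). In the list of 15 G1 cyclins, their kinases and inhibitors, 2 rose in Y721F, 4 in WT with 1 lower, 3 in 3AB and 2 in 3ABY721. In that order 693, 459, 86 and 148 of all 19938 genes were called higher, and the list's median was 0.26, 0.04, 0.03 and 0.06. Foxm1, a driver of mitotic transcription, measured 0.30, -0.04, 0.22 and 0.14 in Y721F, WT, 3AB and 3ABY721, and Mybl2 (B-MYB), a partner of the DREAM subunits, 0.67, 0.66, 0.23 and 0.51, and none of these was called. E2f1 measured 0.41, -0.28, -0.10 and -0.07, also without a call. At 180 min Cdkn1b, an inhibitor of G1 kinases, fell by 1.23 in Y721F and fell by 1.11 in WT (SE 0.21 each, limma adjusted p = 0.0461 and 0.0274). Rbl2, a relative of the retinoblastoma gene and part of DREAM, measured -0.91 in Y721F (SE 0.25, adjusted p = 0.132) and fell by 1.14 in WT (SE 0.25, adjusted p = 0.0422). Ccng2, a cyclin of resting cells, measured -1.92 in Y721F (SE 0.37, adjusted p = 0.0629) and fell by 1.73 in WT (adjusted p = 0.0371). Of 15 genes of the anaphase-promoting complex 0 were called with growth in any line.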

How the data were processed

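Total RNA of 32 samples was hybridised to Affymetrix Mouse Gene 1.0 ST arrays, per the labels. The authors deposited 1 table of log2 signals for 35556 probe sets, and the sources used here give neither its background correction nor its normalization. Of these probe sets 21789 were annotated to 1 gene, 1621 to several and 12146 to none. Only the first were used, with the highest mean over all arrays where a gene had several, which left 19938 genes. The members and lists were chosen with earlier results of these data known. For each experiment of 16 arrays a mean per group was fitted with limma 3.58.1 in R 4.3.3 (lmFit, eBayes), and Benjamini-Hochberg adjustment ran over all genes of a contrast. A gene was called at an adjusted p under 0.05 and a fold above 1.5. The method was tested on simulated data for WT growth, where 100 of 100 genes changed by a log2 of 1.5 were recovered with 13 false calls among 19938 genes. In WT at 20 min 93 of 100 were recovered, with 7 false calls. No log2 change under 1.5 was simulated, so recovery of changes as small as those of the members was not tested. The noise of each simulated array was drawn independently, without the shared deviations of a series. Array numbers paired samples within each line of the time course, where deviations from group means correlated at 0.353 to 0.734 over the 12 pairs of times. In the steady state these correlations were 0.042 to 0.28. Values in every array were given for Cdk1, Ccna2, Plk1, Aurkb, Bub1, Kif20a, Cenpe, Top2a, Mki67, Cdc20 and Birc5 and for the members with the largest and smallest mean growth effect of each role. In comparisons of lines or times up to 6 called members were named, from each other list up to 4 called genes with the largest mean growth effect, and Foxm1, Mybl2, Cdkn1b, Ccng2, Ccnd1, Rbl2, E2f1 and Csf1r in any case. Other genes were named after their values were seen. Alternatives were a replicate block, quantile normalization, leaving out dim probe sets, the mean of probe sets, the cutoff of the series text, an adjusted p alone and leaving out 1 array. With 2 arrays a group, the number of arrays limits the precision.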

Additional observations from a re-analysis of the deposited data

Results flagged for a closer look

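The difference between Y721F and WT was set against that between 3AB and 3ABY721 in a contrast of its own, added after the data were seen, since both pairs differ in Tyr-721. In grown cells the contrast was called for Espl1 at -1.22 and Mki67 at -0.70 (limma, adjusted p = 0.00754 and 0.0229). These are 2 of 40 members, a share close to the 4.85% of all genes called lower. In starved cells it was called for Espl1 (-0.99), Cenpe (-0.96), Kif4 (-0.92), Aurkb (-0.82), Kif11 (-0.81), Ttk (-0.76) and Ncaph (-0.75), with limma adjusted p between 0.0137 and 0.0386. These are 7 of 40 members, beside 6.91% of all genes called lower. In each case Y721F was lower relative to WT than 3AB was relative to 3ABY721. Espl1 in grown cells kept its call in each of the 12 alternatives run, while Mki67 lost its call in 5 of them, each an omission of 1 array. Each of the 7 calls in starved cells was lost after quantile normalization.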

How the results depend on the processing

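Called members were counted for 22 contrasts under each alternative. Leaving out dim probe sets or averaging probe sets moved 0 of the 22 counts by more than 1.5 times. Quantile normalization gave 1 in Y721F growth and 1 and 2 in Y721F against WT, grown and starved, and 0 for the difference of the line differences in starved cells. The shares of all genes called in either direction were 4.62%, 7.43%, 8.32% and 7.5% in that order. The cutoff of the series text, an unadjusted p under 0.05 with a fold above 1.5, gave 2 in WT at 180 min, 1 at 0 min between Y721F and WT, 1 for the difference of the growth effects of Y721F and WT, and 5 for the difference of the line differences in grown cells. Shares of all genes at this cutoff are not given here. At that p and any fold they were 14.6% in WT at 180 min, 9.63% at 0 min and 12.7% for the growth effects. For the line differences in grown cells 4821 of 19938 genes passed that p. An adjusted p alone gave 1 in WT growth, for which no share of all genes is given here. It gave 20 in Y721F against WT starved, beside 10.9% of all genes lower. With the replicate block the counts were 2 in WT at 180 min, 1 at 0 min between Y721F and WT and 4 for the difference of the line differences in grown cells, and no other count moved by more than 1.5 times. Of all genes 7.81% were called in WT at 180 min. Of 19938 genes 377 were called higher and 418 lower at 0 min, and 766 higher and 1191 lower for the line differences in grown cells. Between lines the block leaves the spread between series out of the error, so the counts at 0 min and for the line differences are too liberal. Steady-state numbers correlated too weakly to count as pairs. Leaving out 1 array, with the lone array assumed to vary like the other groups, gave 0 to 2 in WT growth, 1 to 8 in Y721F growth, 1 to 4 and 3 to 16 in Y721F against WT, grown and starved, and 1 to 5 and 0 to 12 for the difference of the line differences, grown and starved. The other 16 contrasts stayed at 0 to 0. No result reversed its direction. Counts after an omission, here and above, stand without a share of all genes and show only how far a count moved. With 2 arrays a group, changes under 1.5-fold were seldom resolved in the time course, and the cause of these movements was not tested.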
